A study of Homo sapiens with 7 samples.

Results

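The miR-15/16 seed family was followed in the small extracellular vesicles (sEVs) of the liver cancer cell line HepG2. Its 6 members here were the 5p arms hsa-miR-16-5p, hsa-miR-15a-5p, hsa-miR-15b-5p, hsa-miR-195-5p, hsa-miR-424-5p and hsa-miR-497-5p, written without the species prefix from here on and taken by name from the 2656 mature miRNAs of the deposited count table. Small RNA-seq was performed on sEVs of control cells (shCTR, 3 biological replicates) and of cells in which the RNA-binding protein SYNCRIP had been silenced (shSYNCRIP, 4 biological replicates). Both groups were HepG2 cells expressing a short hairpin RNA, either a scrambled control or a single hairpin against SYNCRIP. For the SYNCRIP hairpin the paper describes lentiviral infection, selection with puromycin and induction by treatment with doxycycline. It cites an earlier report for the control hairpin and does not say separately whether that was delivered and induced in the same way. The sEVs of both groups were pelleted by differential ultracentrifugation from medium with sEV-depleted serum. The sample titles name HepG2 throughout, whereas the cell line field of the labels changes its trailing number from sample to sample. The table holds miRNAs only, so the silencing of SYNCRIP itself was not measured in it.

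A miRNA guides the Argonaute proteins to messenger RNAs mainly through its seed, the bases 2 to 8 from its 5′ end, so miRNAs that share a seed can share targets. The miR-15/16 family is best known for repressing cyclins, other drivers of cell-cycle entry and the anti-apoptotic gene BCL2, and for the loss of the miR-15a/miR-16-1 locus in chronic lymphocytic leukemia. miR-16 is also abundant in red blood cells and is often used as a reference miRNA in plasma and vesicle work. SYNCRIP is known to load miRNAs that carry the hEXO motif into sEVs, and the comparison asked how the family's level in sEVs stood when SYNCRIP was depleted.

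The mature sequences are shown because they define the family and because the members differ only outside the seed. They are given 5′ to 3′ from RefSeq (GRCh38.p14), where 6 of the 6 members were found, with the seed in capitals.
miR-16-5p: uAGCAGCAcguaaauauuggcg
miR-195-5p: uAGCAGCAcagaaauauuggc
miR-15a-5p: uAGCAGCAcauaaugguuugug
miR-15b-5p: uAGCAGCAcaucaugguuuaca
miR-497-5p: cAGCAGCAcacugugguuugu
miR-424-5p: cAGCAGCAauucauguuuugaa
Compared base by base from the 5′ end without gaps, miR-16-5p and miR-195-5p were the most alike pair. They were identical at 19 of 21 positions and differed by G10A and U11G. miR-15a-5p and miR-15b-5p were identical at 18 of 22 positions and differed by A12C, G20A, U21C and G22A. miR-15a-5p and miR-497-5p shared 17 of 21 positions. miR-16-5p shared 16 of 22 positions with miR-15a-5p, 14 of 22 with miR-15b-5p, 12 of 22 with miR-424-5p and 11 of 21 with miR-497-5p. The shortest distance between members was therefore a pair of bases, and how reads matching more than 1 miRNA were counted is not given in the sources used here. A count of miR-195-5p, at most 27 in any library, could thus include reads of miR-16-5p, and this was not tested.

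The family is encoded at 4 loci, and only miR-16-5p has more than 1 gene. miR-16-5p of MIR16-1 lies at chr13:50049027-50049048 and miR-15a-5p at chr13:50049167-50049188, both on the minus strand in an intron of the long non-coding RNA gene DLEU2, with 57 bases between the hairpins. miR-15b-5p lies at chr3:160404607-160404628 and miR-16-5p of MIR16-2 at chr3:160404754-160404775, both on the plus strand in an intron of SMC4, a condensin gene, with 59 bases between the hairpins. miR-195-5p at chr17:7017667-7017687 and miR-497-5p at chr17:7017979-7017999 lie on the minus strand within an exon of a transcript of MIR497HG, their host gene, and miR-424-5p lies at chrX:134546680-134546701 on the minus strand outside other annotated genes. The miR-16-5p of the chromosome 13 and chromosome 3 genes is the same sequence, so its counts cannot be divided between the clusters. miR-15a-5p and miR-15b-5p each come from 1 cluster.

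The libraries held between 29863 and 388226 miRNA counts, and between 100 and 275 miRNAs were detected with at least 1 count. shSYNCRIP replicate 4 had the fewest detected miRNAs, 100 of the 406 detected in any library, at a total of 114983 counts. It stood apart from the others in several values below, which are therefore also given without it. With 0 counts, a miRNA could still make up 0.00261% of that library and 0.0100% of the shallowest one, shSYNCRIP replicate 2 (3 counts of the total). These limits, and the 95% intervals below, cover counting error only, since amplified reads are not independent molecules.

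miR-16-5p made up most of the family in every library and was among the most abundant miRNAs of the sEVs. It had 8045, 12975 and 34485 counts in shCTR replicates 1 to 3, or 7.56%, 8.83% and 8.88% of all miRNA counts. In shSYNCRIP replicates 1 to 4 it had 13932, 2385, 22765 and 4842 counts, or 9.24%, 7.99%, 9.45% and 4.21%. The last library was low and the other 6 lay close together, so the groups overlapped. The mean share was 8.43% ± 0.748 (SD, n = 3) in shCTR and 7.72% ± 2.43 (SD, n = 4) in shSYNCRIP. The exact Clopper-Pearson 95% interval of the low library ran from 4.10% to 4.33%, whereas that of the shallowest library ran from 7.68% to 8.30%. By rank, miR-16-5p was the 2nd most abundant miRNA in 5 libraries, the 4th in shSYNCRIP replicate 2 and the 5th in shSYNCRIP replicate 4.

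With all libraries and the default filter on low counts, the estimated difference of miR-16-5p between the groups was near 0. After TMM scaling, limma-voom gave a log2 fold change (shSYNCRIP against shCTR) of -0.07 with a standard error of 0.31 and a 95% confidence interval from -0.68 to 0.55 (adjusted p = 0.992). The quasi-likelihood test of edgeR gave -0.08 (adjusted p = 0.983). Over 15 alternative settings and tests the log2 fold change ran from -0.51 to -0.04, and it was -0.42 in limma-voom with no filter on low counts. On the log2 CPM scale (CPM, counts scaled to a common library size, with a prior count of 2) the mean was 16.39 ± 0.12 in shCTR and 16.25 ± 0.50 in shSYNCRIP, lower by a difference of -0.14 (exact permutation test, two-sided, over the 35 ways to divide 7 libraries into 3 and 4, p = 0.743, where the smallest possible p is 0.0286). Among the 117 miRNAs that passed the filter on low counts, the limma-voom value of miR-16-5p was the median, with 58 miRNAs below it and 58 above. The quartiles of all tested miRNAs were -1.42 and 0.64. By the quasi-likelihood test 52 miRNAs lay below it and 64 above. Its standard error was the 2nd smallest of the 117, against a median of 2.05, and its spread over the 7 libraries (SD 0.36 on the log2 CPM scale) was also the 2nd smallest, against a median of 2.57.

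**Figure D1:**
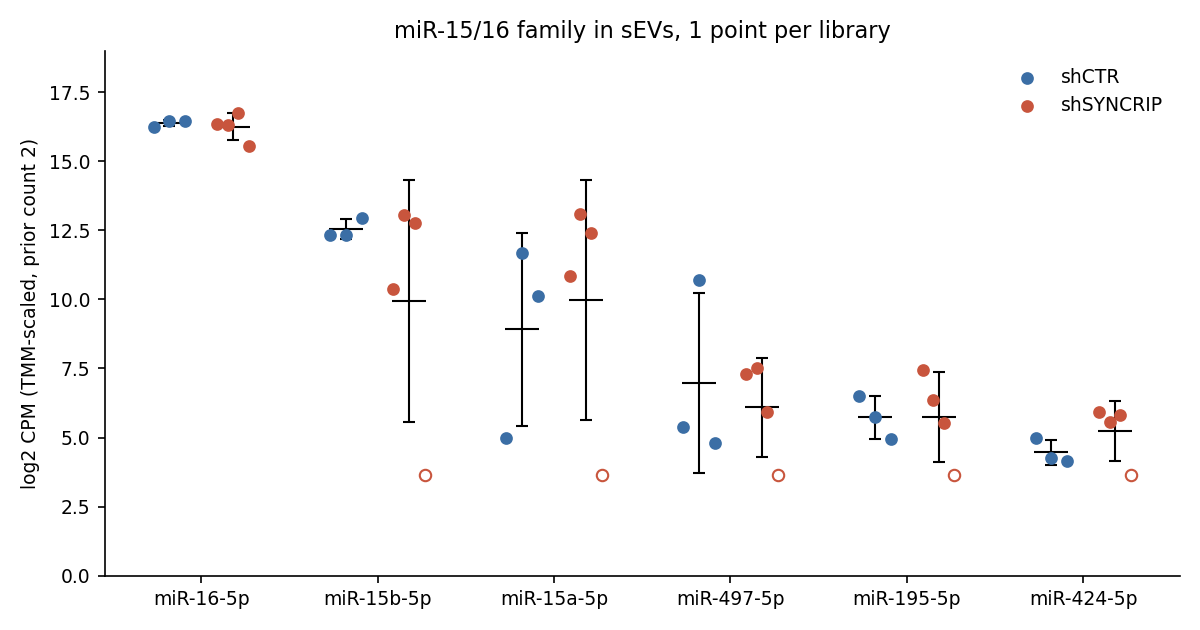
Log2 CPM (TMM-scaled, prior count 2) of the 6 family members in each of the 3 shCTR (blue) and 4 shSYNCRIP (red) libraries, with the mean and SD of each group as bars; open circles are counts of 0. miR-16-5p lay between 15.56 and 16.75 in all 7 libraries, and each of the other 5 members had 0 counts in shSYNCRIP replicate 4. That library held 100 of the 406 miRNAs detected in any library.

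miR-15b-5p, the partner of miR-16-5p in the SMC4 intron, was the 2nd most abundant member, and its shSYNCRIP libraries were far apart. It had 529, 731 and 3053 counts in the shCTR libraries, or 0.497%, 0.498% and 0.786%. The shSYNCRIP libraries had 215, 247, 1438 and 0 counts, or 0.143%, 0.827%, 0.597% and 0%. Both the highest and the lowest share of the 7 thus came from shSYNCRIP, replicates 2 and 4. On the log2 CPM scale the mean was 12.53 ± 0.37 (SD, n = 3) in shCTR and 9.95 ± 4.39 (SD, n = 4) in shSYNCRIP. The latter includes shSYNCRIP replicate 4, whose 0 counts entered as 3.63, a value set by the prior count. limma-voom gave a log2 fold change of -2.89 with a standard error of 1.85 and an interval from -6.59 to 0.80 (adjusted p = 0.625), and the quasi-likelihood test gave -0.53 (adjusted p = 0.983). Without shSYNCRIP replicate 4 the limma-voom value was -1.17, and without shSYNCRIP replicate 2 or 3 it was -4.43 or -4.02 and met the cutoffs of the study's methods, which are given below. The exact permutation test on log2 CPM gave p = 0.486 for a difference of -2.58 (two-sided).

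miR-15a-5p, the partner of miR-16-5p in the DLEU2 intron, varied even more. Its counts were 2, 464 and 419 in shCTR and 302, 253, 1116 and 0 in shSYNCRIP. As a share, 0.00188%, 0.316% and 0.108% in shCTR stood against 0.200%, 0.847%, 0.463% and 0% in shSYNCRIP. The near absence of miR-15a-5p in shCTR replicate 1 and its absence in shSYNCRIP replicate 4 put 1 library of each group far below the rest. limma-voom gave a log2 fold change of 0.87 with a standard error of 2.70 and an interval from -4.52 to 6.27 (adjusted p = 0.992), and the quasi-likelihood test gave 1.46 (adjusted p = 0.983). The limma-voom value was 2.56 without shSYNCRIP replicate 4, -0.89 without shCTR replicate 1, -0.48 without shSYNCRIP replicate 2 and -0.10 without shSYNCRIP replicate 3, so its direction rested on single libraries. The exact permutation test on log2 CPM gave p = 0.629 for a difference of 1.07 (two-sided). Together with those of miR-16-5p and miR-15b-5p this made 3 such tests, none of which passed 0.05 before adjustment.

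The members of the chromosome 17 cluster and the X-linked member were rare. miR-497-5p had 3, 240 and 6 counts in shCTR and 24, 5, 10 and 0 in shSYNCRIP. A single library, shCTR replicate 2, therefore held 240 of its 288 counts. limma-voom gave a log2 fold change of -1.02 with a standard error of 2.55 and an interval from -6.13 to 4.09 (adjusted p = 0.992), the quasi-likelihood test gave -2.66 (adjusted p = 0.983), and without shCTR replicate 2 the limma-voom value turned to 0.80. miR-195-5p, its neighbor, had 8, 6 and 7 counts in shCTR and 27, 2, 7 and 0 in shSYNCRIP. miR-424-5p had 2, 1 and 2 counts in shCTR and 8, 1, 9 and 0 in shSYNCRIP. Neither of these passed the default filter, and they held 57 and 23 counts over all libraries. With no filter, limma-voom gave a log2 fold change of -0.34 for miR-195-5p (adjusted p = 0.981) and 1.05 for miR-424-5p (adjusted p = 0.905). Keeping miRNAs that reached 1 CPM in 3 or more libraries, it gave -0.05 (adjusted p = 0.991) and 1.12 (adjusted p = 0.978).

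Thus 4 of the 6 members were tested after the default filter, and 0 of the 4 were called. The study's methods set cutoffs for limma-voom of 0.1 on the nominal p and 0.5 on the fold change, and the latter was read here on the log2 scale, which the methods do not spell out. At these cutoffs 21 of the 117 tested miRNAs were called (17.9%), 15 of them lower (12.8%) and 6 higher (5.13%). By the quasi-likelihood test at an adjusted p under 0.05, 0 of the 4 members and 0 of the 117 miRNAs (0%) were called. With no filter on low counts limma-voom called 1 of 6 members, miR-15b-5p (log2 fold change -3.35, adjusted p = 0.414), beside 87 of all 406 miRNAs. miR-15b-5p was also called without shSYNCRIP replicate 2, where 16 of 105 miRNAs were called, or replicate 3, where 22 of 104 were. Of the 117, 2 had an unadjusted p under 0.05 in the quasi-likelihood test, while limma-voom and DESeq2 each gave 3 an adjusted p under 0.05. DESeq2 gave the members an adjusted p of 0.983 each. Among all tested miRNAs, 92 lay below and 24 above miR-15a-5p in limma-voom log2 fold change, 15 below and 101 above miR-15b-5p, and 34 below and 82 above miR-497-5p. The limma-voom intervals of all 4 tested members reached beyond 0.5 on both sides of 0, those of miR-16-5p only to -0.68 and 0.55, so the data neither show a change of any of them nor show that their levels were alike.

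**Figure D2:**
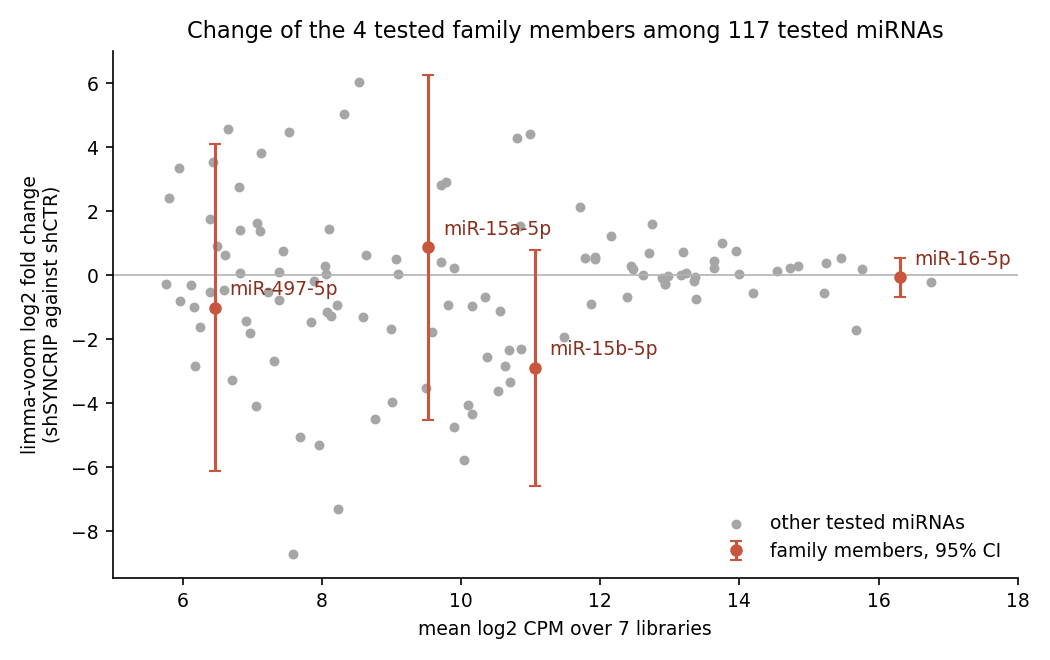
limma-voom log2 fold change (shSYNCRIP against shCTR) against the mean log2 CPM over 7 libraries for the 117 tested miRNAs (gray), with the 4 tested family members in red and their 95% confidence intervals as bars. miR-16-5p sits near 0 at the abundant end with an interval from -0.68 to 0.55, and the intervals of the other 3 members span several log2 units across 0.

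Among neighboring pairs in the order of mean levels, only the top pair kept its order in every library. miR-16-5p exceeded miR-15b-5p in 7 of 7 libraries. miR-15b-5p exceeded miR-15a-5p in 4 of 7, miR-15a-5p exceeded miR-497-5p in 5 of 7, miR-497-5p exceeded miR-195-5p in 3 of 7 and miR-195-5p exceeded miR-424-5p in 5 of 7, each with 1 library at 0 for both. These lower neighbors had mean log2 CPM of 11.06 ± 3.40, 9.53 ± 3.72, 6.47 ± 2.32, 5.74 ± 1.23 and 4.90 ± 0.90 (SD, n = 7), and the spreads of neighbors overlapped. Beyond neighbors, miR-15b-5p exceeded miR-497-5p, miR-195-5p and miR-424-5p in every library that held it. Spread over libraries was wide for the partners, ranking 90th for miR-15b-5p and 100th for miR-15a-5p from the smallest among the 117 tested miRNAs, and 52nd for miR-497-5p. For miR-15b-5p it came largely from shSYNCRIP replicate 4, at 3.63 with 0 counts. In the libraries that held it, miR-15b-5p lay between 10.36 and 13.05. For miR-15a-5p the libraries that held it still ran from 4.99 to 13.09.

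Ratios of counts within a library do not depend on scaling between libraries, and they set miR-16-5p beside its cluster partners directly. For every 1000 counts of miR-16-5p, miR-15b-5p had 65.8, 56.3 and 88.5 counts in shCTR and 15.4, 104, 63.2 and 0 in shSYNCRIP. miR-15a-5p had 0.249, 35.8 and 12.2 in shCTR and 21.7, 106, 49.0 and 0 in shSYNCRIP. The highest ratios of both partners came from the shallowest library, shSYNCRIP replicate 2, and the groups overlapped for both. Put the other way, there were 15.2, 17.7 and 11.3 counts of miR-16-5p per count of miR-15b-5p in shCTR, and 64.8, 9.66 and 15.8 in the shSYNCRIP libraries that held any. In shSYNCRIP replicate 4 each of the other 5 members was at least 1614-fold lower than miR-16-5p, taking 3 counts as the limit for a count of 0. The log2 ratios add a prior count of 2, scaled to library size, which sets their values in shSYNCRIP replicate 4. The log2 ratio of miR-16-5p to miR-15b-5p was 3.86 ± 0.33 in shCTR and 6.30 ± 3.93 in shSYNCRIP. The difference of 2.44 shrank to 0.56 without shSYNCRIP replicate 4, and was 2.94 or 1.86 at a prior count of 0.5 or 10. The log2 ratio to miR-15a-5p was 7.47 ± 3.37 in shCTR and 6.26 ± 3.90 in shSYNCRIP, a difference of -1.21 that became -3.10 without shSYNCRIP replicate 4 and 0.69 without shCTR replicate 1. miR-195-5p had between 0.203 and 1.94 counts per 1000 of miR-16-5p in the 6 libraries that held it, miR-424-5p between 0.0580 and 0.574, and miR-497-5p between 0.174 and 18.5.

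**Figure D3:**
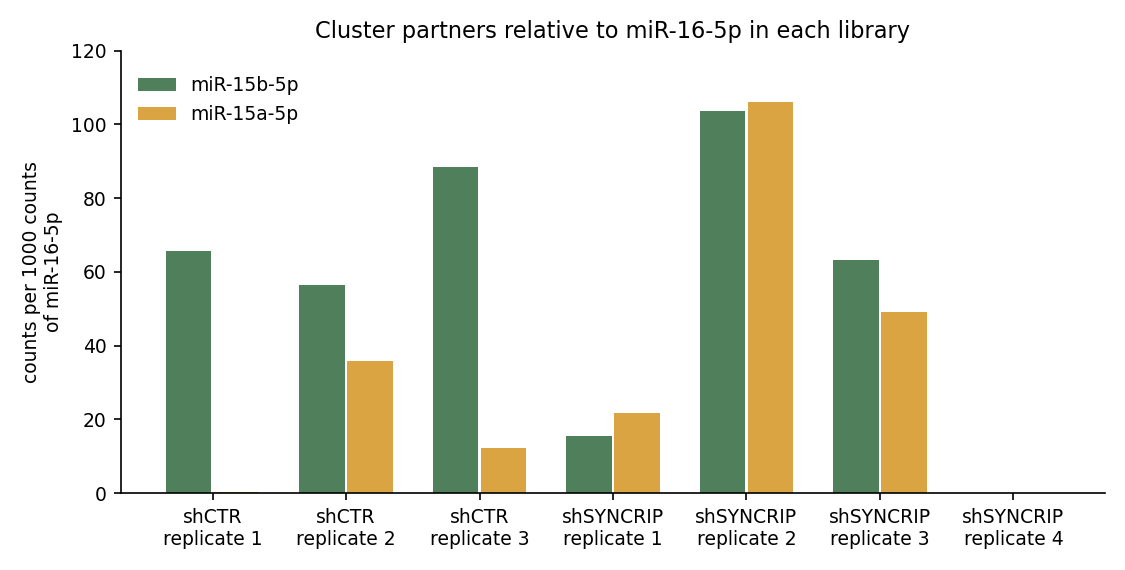
Counts of miR-15b-5p (green) and miR-15a-5p (yellow) per 1000 counts of miR-16-5p in each of the 7 libraries, 1 bar per library without error bars. miR-15b-5p exceeded miR-15a-5p in the 3 shCTR libraries, and in shSYNCRIP it was higher in 1 library and lower in 2, an order that was not tested. shSYNCRIP replicate 2 had the tallest bars (104 and 106), and shSYNCRIP replicate 4 had 0 counts of both.

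Between the partners, miR-15b-5p exceeded miR-15a-5p in 3 of 3 shCTR libraries. In shSYNCRIP it was higher in 1 library and lower in 2, and both were at 0 in the last. For every 100 counts of miR-15b-5p there were 0.378, 63.5 and 13.7 counts of miR-15a-5p in shCTR. The 3 shSYNCRIP libraries that held both had 140, 102 and 77.6. The lowest shCTR value rested on 2 counts of miR-15a-5p, and shSYNCRIP replicate 4 gave no ratio. This ratio was singled out after its values had been seen and was not tested. How often other pairs of miRNAs part by group in this way was not counted.

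The family as a whole took 8.07%, 9.81% and 9.78% of the miRNA counts in shCTR and 9.62%, 9.69%, 10.5% and 4.21% in shSYNCRIP. The mean was 9.22% ± 0.995 (SD, n = 3) against 8.51% ± 2.89 (SD, n = 4), and the groups overlapped. The difference of -0.714 percentage points became 0.719 without shSYNCRIP replicate 4. miR-16-5p made up 93.7%, 90.0% and 90.8% of the family in shCTR and 96.0%, 82.4%, 89.8% and 100% in shSYNCRIP (91.5% ± 1.93 against 92.1% ± 7.67). Being shares of a pool of vesicles, these values cannot tell fewer vesicles that carry a miRNA from fewer copies in each.

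A list of hepatocyte miRNAs was summed because HepG2 is a liver cell line, and blood-cell miRNAs because miR-16-5p is abundant in blood cells. These sums do not identify the cells that the vesicles came from. Of 5 hepatocyte miRNAs, 4 were detected, and miR-122-5p, the defining hepatocyte miRNA, had between 313 and 1664 counts in each of the 7 libraries, while miR-192-5p had at most 1 and miR-885-5p had 0. The remaining hepatocyte miRNAs were nearly absent from some libraries. miR-194-5p had 2, 701 and 363 counts in shCTR and 463, 1, 1120 and 0 in shSYNCRIP. The counts of miR-148a-3p were 265, 278 and 3 against 200, 1, 298 and 0. The list summed to between 0.523% and 1.01% of counts in shCTR and between 0.272% and 1.49% in shSYNCRIP, and 0 of its 3 tested members were called, against 17.9% of all tested miRNAs. Of 9 blood-cell miRNAs, 9 were detected, and together they took between 10.9% and 19.9% of counts in shCTR and between 8.85% and 13.9% in shSYNCRIP, mostly through miR-486-5p. Of the 6 tested, 2 (miR-451a and miR-142-5p) were lower and 0 higher at the study's limma-voom cutoffs, against 12.8% and 5.13% of all tested miRNAs. The median log2 fold change of the 6 was -2.39 in limma-voom, against -0.07 over all 117 tested, and -0.54 by the quasi-likelihood test, against 0.09, with 0 called. The tests differed in sign for miR-451a, at -3.62 in limma-voom and 0.60 by quasi-likelihood, and for miR-142-3p, at 0.10 and -0.64. The mean share of miR-451a was 0.596% in shCTR and 0.825% in shSYNCRIP. Its counts were 236, 1241 and 2803 in shCTR and 1042, 1, 6279 and 0 in shSYNCRIP, so the latter mean rested mostly on replicate 3. The erythroid miR-144-3p and miR-144-5p were at 0 in every library but shSYNCRIP replicate 3 (138 and 188 counts). In shSYNCRIP replicate 4, where the family share was lowest, the blood-cell and hepatocyte sums were lowest too, at 8.85% and 0.272%. The blood-cell sum was nearly as low in shSYNCRIP replicate 2, at 9.28%, where the family share was 9.69%. Without miR-486-5p the blood-cell sum ran from 1.37% to 3.17% in shCTR and from 0.317% (replicate 4) to 4.33% (replicate 3) in shSYNCRIP. What part of the miR-16-5p counts came from either source was not tested.

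The hEXO motif, the 6-base sequence bound by SYNCRIP, reads as 3 bases that are not C, then a base that is not U, then A or U, then G or C. It was searched on the mature strand after the first 7 bases, as the study's methods do. Of the 6 members only miR-15a-5p held it, with matches at bases 10 and 17 from the 5′ end, shown in capitals.
miR-15a-5p: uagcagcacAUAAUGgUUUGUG
Among all 2370 RefSeq mature miRNAs 63.6% held a match in this window, among those of 22 bases 66.9%, among those of 21 bases 55.0%, and among the tested miRNAs with a sequence 65 of 105 (61.9%). The 4 bases by which miR-15b-5p differs from miR-15a-5p lie at positions 12, 20, 21 and 22, within these matches. The limma-voom log2 fold change of miR-15a-5p, the member with the motif, was 0.87 ± 2.70 (SE), beside -2.89 ± 1.85 (SE) for miR-15b-5p and -0.07 ± 0.31 (SE) for miR-16-5p, which lack it, and neither of the first pair differed from 0 at the cutoffs used.

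The other arms and cluster neighbors of the family were nearly absent. Of a list of 13 such miRNAs 2 were detected and 0 passed the filter. miR-16-2-3p, the other arm of the chromosome 3 hairpin, had 527 counts in shCTR replicate 3 and 0 in the other 6 libraries. miR-450a-5p, which is encoded near miR-424-5p, had 7, 0 and 0 counts in shCTR and 7, 3, 4 and 0 in shSYNCRIP. The passenger arms of the miR-15a, miR-15b and miR-16-1 hairpins had 0 counts in all 7 libraries, as did miR-503-5p, whose hairpin lies 215 bases from that of miR-424-5p. Only 1 further RefSeq miRNA, miR-6838-5p, carries the seed at bases 2 to 8, and it had 0 counts in all libraries. miR-103a-3p and miR-107 carry the same 7 bases at positions 1 to 7, which offsets the match by 1 base, as their sequences show, with these bases in capitals.
miR-103a-3p: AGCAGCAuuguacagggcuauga
miR-107: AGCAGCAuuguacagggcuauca
miR-103a-3p had 3659, 7884 and 27101 counts in shCTR and 9523, 497, 10797 and 1613 in shSYNCRIP (limma-voom log2 fold change -0.54, SE 0.42, adjusted p = 0.763). miR-107 had 20, 939 and 615 counts in shCTR and 937, 12, 484 and 0 in shSYNCRIP (limma-voom log2 fold change -1.78, SE 2.30, adjusted p = 0.992). The abundant relative was found in every library and the rarer one had 0 counts in shSYNCRIP replicate 4. Such 0 counts were common there, as that library held 100 of the 406 miRNAs detected in any library.

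The profile of miR-16-5p over the libraries was nearly flat, so the miRNAs closest to it are those that also varied little. Over the 7 libraries, the smallest root mean square differences of centered log2 CPM from miR-16-5p, among the other 116 tested miRNAs, were 0.27 for miR-99a-5p, 0.38 for miR-25-3p and 0.45 for let-7g-5p, against a median of 2.25. The offset relative miR-103a-3p was the 9th nearest, at 0.61. All 3 nearest were detected in every library, and 0 of them were called. miR-99a-5p had 753, 1052 and 4204 counts in shCTR and 1749, 173, 2257 and 527 in shSYNCRIP. Its log2 fold change in limma-voom was -0.02 (adjusted p = 0.992). These measures share library, depth and scaling, and they say nothing of shared function.

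**Figure D4:**
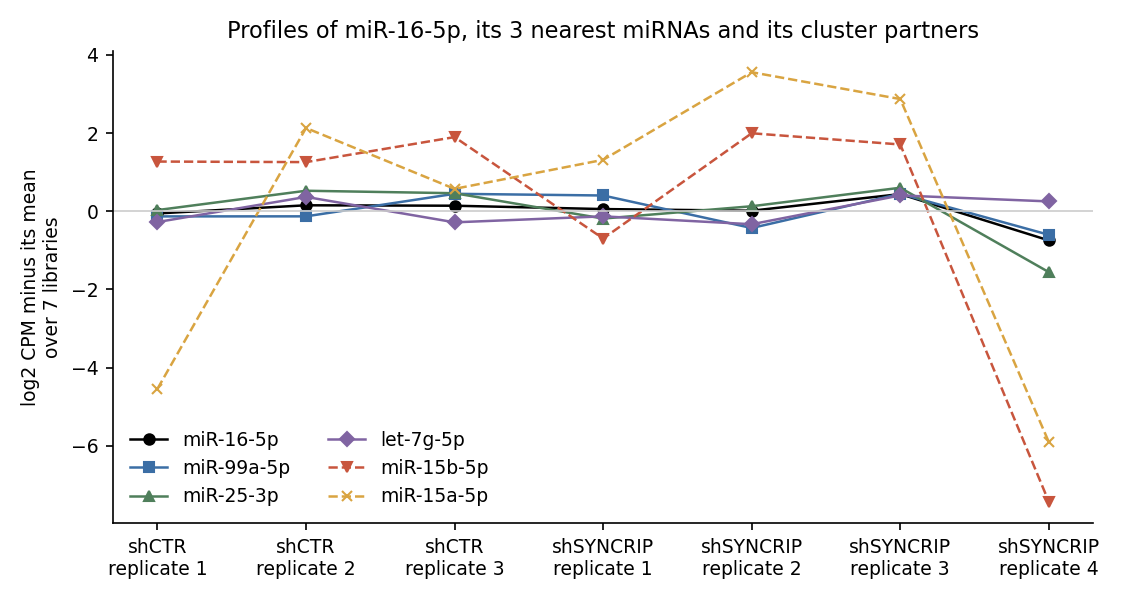
Log2 CPM minus its mean over 7 libraries for miR-16-5p (black), the 3 miRNAs nearest to it (solid lines) and its cluster partners miR-15b-5p and miR-15a-5p (dashed); lines join the libraries only to make each miRNA easy to follow. The colored solid lines differ from miR-16-5p by a root mean square of 0.27 to 0.45. The dashed lines range far more widely, lying lowest, as miR-16-5p does, in shSYNCRIP replicate 4.

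Intermediate counts were scarce in these libraries. In each library between 0 and 8 miRNAs had 31 to 99 counts, while 36 to 171 had 1 to 30 counts and 56 to 116 had 100 or more. The family's counts also lay to either side of this range. miR-15a-5p had 2 or fewer counts in 2 libraries and at least 253 in the other 5, miR-15b-5p had 0 counts in 1 library and at least 215 in the other 6, and miR-497-5p had at most 24 counts in 6 libraries and 240 in 1.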

How the data were processed

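Per the study's methods, adapters were trimmed, reads that were short or of low quality were discarded with Cutadapt, and forward reads were quantified with MiRDeep2 against miRBase precursor and mature sequences. The authors deposited raw counts per mature miRNA, with no normalization, and the submitters' processing notes name GRCh38. Columns were matched to samples by group and replicate number.

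From these counts, miRNAs were kept by the default filterByExpr of edgeR (117 of 2656), scaled by TMM and compared by limma-voom (cutoffs of the study's methods) and by edgeR's quasi-likelihood test (Benjamini-Hochberg over all tested). R 4.3.3, edgeR 4.0.16, limma 3.58.1, DESeq2 1.42.0 and Python 3.11.15 were used. The tests were tried on simulated counts to check the code, which does not show how well they find changes in these data. Named miRNAs were the members, the other arms and cluster neighbors of their hairpins, miRNAs with the seed at bases 2 to 8 or 1 to 7, and the 3 nearest profiles. Blood-cell (9) and hepatocyte (5) lists came from general knowledge. Members and lists were chosen with earlier results of these data known. Host genes came from GENCODE and positions from RefSeq. Library totals (29863 to 388226) limit the precision of rare members. Alternatives were other size factors, filters, tests and cutoffs, a replicate block and each library left out. Data from RT-qPCR, CLIP or meRIP were not used here.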

Additional observations from a re-analysis of the deposited data

Results flagged for a closer look

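shSYNCRIP replicate 4 lay far from the other 3 libraries of its group in 2 of the 10 values of the family that were examined for such a gap. Its family share was 4.21%, below the 9.62% to 10.5% of the other 3, with a gap to the nearest of 0.858 of the group's range (Dixon's 95% critical value for 4 samples, 0.829). Its miR-424-5p, at 0 counts, had a log2 CPM of 3.63, with a gap of 0.835 of the range. Chance gives about 1 in 20 such groups, or 0.5 of 10 if the values were independent. They are not, since they share counts and libraries. The log2 CPM of miR-16-5p, which held 100% of the family counts in this library, had a gap of 0.641 and was not singled out. The miR-424-5p value compares 0 counts with 8, 1 and 9 counts.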

How the results depend on the processing

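The number of members called by limma-voom at the study's cutoffs was 0 and moved to 1 with no filter on low counts (miR-15b-5p, log2 fold change -3.35, adjusted p = 0.414). It ranged from 0 to 1 when each library was left out. Leaving out shSYNCRIP replicate 2 (-4.43, adjusted p = 0.465) or replicate 3 (-4.02, adjusted p = 0.330) led to miR-15b-5p being called. At these 3 settings 87 of 406, 16 of 105 and 22 of 104 tested miRNAs were called. The quasi-likelihood count was 0 under every alternative run. miR-15a-5p changed direction without shCTR replicate 1 (-0.89), shSYNCRIP replicate 2 (-0.48) and shSYNCRIP replicate 3 (-0.10), and miR-497-5p without shCTR replicate 2 (0.80) and with the replicate block (0.11), which also leaves out shSYNCRIP replicate 4. The same libraries without the block gave -0.04. Leaving out single libraries gave -0.51 to -0.04 for miR-16-5p, -0.89 to 2.56 for miR-15a-5p, -4.43 to -1.17 for miR-15b-5p and -2.11 to 0.80 for miR-497-5p (limma-voom log2 fold changes). It moved the difference in family share to between -1.38 and 0.719 percentage points and that in the share of miR-16-5p within the family to between -2.06 and 3.79. The log2 ratio differences moved to between 0.56 and 3.45 (miR-15b-5p) and between -3.10 and 0.69 (miR-15a-5p). The causes were not tested.

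Same-numbered libraries of the groups did not deviate together (correlations -0.06, -0.03 and 0.09). The sources used here do not state whether the numbers pair the libraries, and these correlations cannot settle it. With the replicate block on replicates 1 to 3, 0 members were called, and limma-voom gave -0.24 for miR-16-5p, 2.30 for miR-15a-5p, -0.91 for miR-15b-5p and 0.11 for miR-497-5p. Requiring at least 10 counts in every library left miR-16-5p as the only member tested. miR-195-5p and miR-424-5p, at 57 and 23 counts over all libraries, were tested only with no filter or with a filter of 1 CPM in 3 or more libraries.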
